A study of Homo sapiens with 9 samples.

Results

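The RAB GTPases are the largest branch of the RAS superfamily, and each one marks a particular membrane of the cell. This report describes the 57 RAB genes that the arrays measured in BL2 cells, out of 19775 genes named by a probe set of 1 gene. A gene was taken as a member when its whole symbol in the platform annotation was RAB, a number and at most one of the letters A to D. All 57 were protein-coding genes in the gene table. They were covered by 138 of the 54613 probe sets tested, 35 of them by more than 1 and RAB7A by 7. Each gene was represented by its probe set of the highest mean over the 9 arrays, which is called its brightest probe set here.

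BL2, a long-established line from a human Burkitt lymphoma, served the study as its example of germinal centre B cells that have become malignant. Cells were treated for 6 hrs with 200 ng/ml recombinant human CD40L, the helper T cell ligand of CD40, or for 6 hrs with 1 μM LPS, a glycolipid of bacterial outer membranes, or were left untreated as control. The labels give no culture time for the control. There were 9 arrays, 3 per condition with 1 from each of 3 batches, and the labels call them biological replicates. All cells are of a single line grown in the same medium, and cells treated with other stimuli are not analysed here.

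A RAB protein is switched on when an exchange factor loads it with GTP, and switched off when a GTPase activating protein, most often one with a TBC domain, makes it hydrolyse that GTP. In its active form it sits on a membrane through lipid tails added by the geranylgeranyl transferase, and it recruits effectors that tether, move or fuse vesicles. In B cells this traffic carries internalised antigen to the compartments where MHC class II is loaded, returns receptors to the surface and delivers secretory cargo. Much of this control acts on the proteins, whereas the arrays measured transcripts only.

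The values are levels on a generalised log2 scale, which is flatter than log2 for dim probe sets, so that their differences understate the fold change. A level depends on the probes as well as on the transcript, so that no level of 1 RAB gene was set against that of another. In RNA from bulk cells, fewer cells with a transcript and less of it per cell cannot be told apart. Array medians lay between 6.42 and 6.47 and replicates correlated at 0.994 to 0.997 across probe sets. Of 8 B cell markers 7 were measured, at mean levels of 8.83 to 13.0. T and NK cell markers had mean levels of 6.17 to 6.67, monocyte markers 6.16 to 6.67 and fibroblast markers 5.80 to 7.94. These levels come from different probes and describe the cell type only roughly. Per array, the mean over the B cell markers was 10.43 to 10.47 after CD40L, 10.52 to 10.60 after LPS and 10.66 to 10.78 in control cells, and 5 of the 7 were lower after CD40L and 3 after LPS at an adjusted p of 0.05. Their part in the RAB results was not tested.

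After CD40L 4 of the 57 RAB genes rose, namely RAB27A, RAB21, RAB7A and RAB5C, and 0 fell. This is 7.02% of the RAB genes, beside 5.03% of all genes called higher, so the share lay near the background. The 0 lower calls stand beside 2.92% of all genes. LPS gave 0 calls in either direction, where 1.62% of all genes were called higher and 1.48% lower. The calls are those of limma at an adjusted p of at most 0.05 over all probe sets. With unadjusted p-values under 0.05, the family had 11 higher and 4 lower members after CD40L, and 7 higher and 1 lower after LPS. Of all 19775 genes, 2495 were then higher and 1447 lower after CD40L, and 1664 higher and 1300 lower after LPS. The median log2 fold change of the RAB genes was 0.02 after CD40L and 0.00 after LPS, beside 0.01 and 0.00 for all genes. The median size of the change, whatever its sign, was 0.07 in RAB genes and 0.06 in all genes after CD40L, and 0.05 in both after LPS.

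Counted by probe set, 12 of 138 (8.7%) were higher after CD40L and 0 lower, beside 3.71% and 1.87% of all probe sets. After LPS 4 of 138 (2.9%) were higher and 0 lower, beside 1.17% and 0.892%. All probe sets include 11721 with no gene name and 1801 naming several genes, whereas each RAB probe set names 1 gene. The 12 belonged to 6 genes, 5 of them to RAB27A, 2 each to RAB21 and RAB5C and 1 each to RAB7A, RAB29 and RAB11A. Probe sets of 1 gene measure overlapping transcripts and are not independent of each other. Genes with a mean level at or above the median of all probe sets, 6.45, made up 45 of the 57, and the 4 calls were all among them (8.89%, beside 12.3% of all genes above that level called in either direction).

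**Figure D1:**
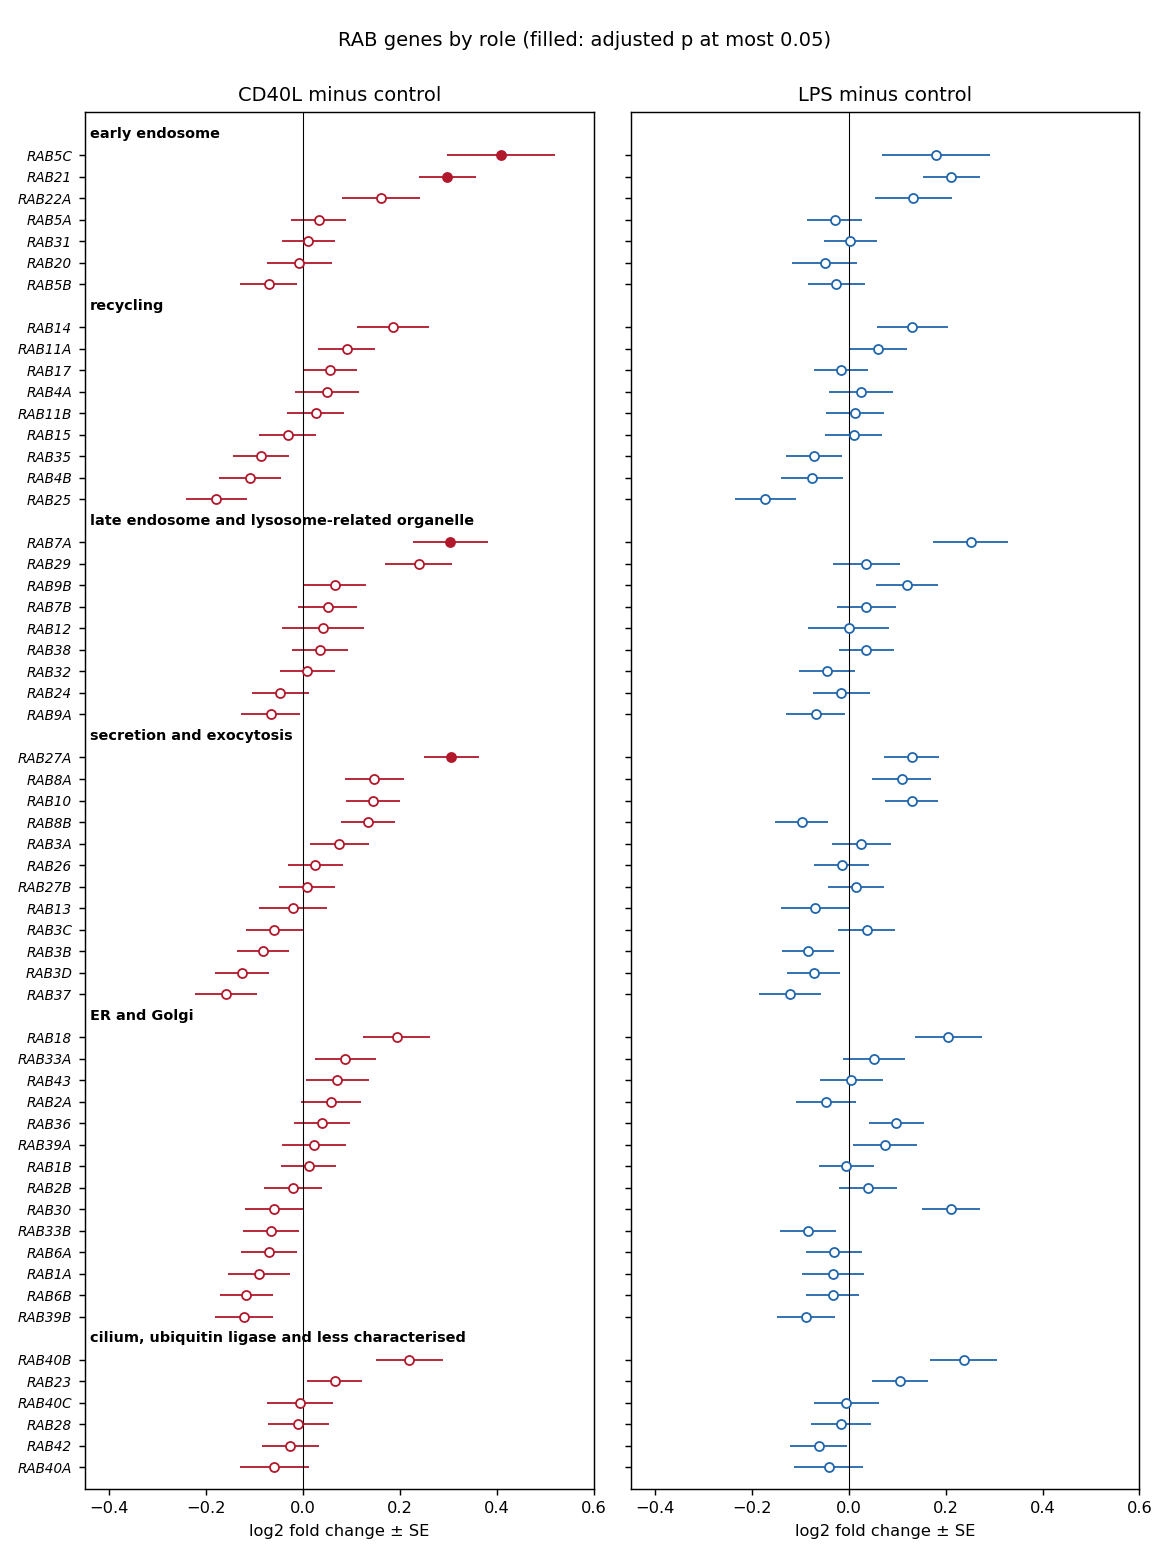
Log2 fold change (x axis, points, with the standard error of the fit as bars) of the brightest probe set of each of the 57 RAB genes, grouped by role, for CD40L minus control on the left and LPS minus control on the right (3 arrays per condition). Filled points have an adjusted p of at most 0.05: RAB5C, RAB21, RAB7A and RAB27A after CD40L and none after LPS.

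The sequence before the start site is shown for RAB27A and RAB21, the 2 genes whose call held when any single array was left out. Both windows hold the 250 bases before the gene's start in the RefSeq promoter table of GRCh38.p14, read 5′ to 3′ on the gene's strand. RAB27A lies on the minus strand (chr15:55319124-55319373) and RAB21 on the plus strand (chr12:71754613-71754862). Capitals mark matches on either strand to the GC box (GGGCGG), the E box (CACGTG) or the cyclic AMP response element (TGACGTCA), or to the κB motif, which NF-κB binds.
RAB27A: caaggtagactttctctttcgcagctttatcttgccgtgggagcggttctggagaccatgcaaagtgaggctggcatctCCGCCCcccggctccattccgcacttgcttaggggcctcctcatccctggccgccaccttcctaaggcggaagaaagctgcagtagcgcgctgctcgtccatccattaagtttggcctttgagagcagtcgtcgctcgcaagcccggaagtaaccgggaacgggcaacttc
RAB21: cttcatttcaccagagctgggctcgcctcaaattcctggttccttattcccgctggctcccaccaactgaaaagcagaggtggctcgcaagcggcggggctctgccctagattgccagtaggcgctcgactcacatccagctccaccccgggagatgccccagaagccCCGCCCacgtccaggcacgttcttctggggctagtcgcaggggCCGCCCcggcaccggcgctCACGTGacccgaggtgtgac

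RAB27A had 1 GC box, 166 to 171 bases before the start. RAB21 had 2, at 34 to 39 and at 77 to 82 bases, and an E box at 15 to 20 bases before its start. No κB motif was found in either window, nor in those of RAB5C and RAB7A. The promoter table held 45 of the 57 members. A κB motif occurred in 4 of them (8.89%), RAB28, RAB31, RAB32 and RAB3C, beside 9.57% of 27305 promoters, and none of these 4 genes passed the threshold. The 27305 promoters were not limited to protein-coding genes or to genes on the arrays, whereas the members were all protein-coding. An E box occurred in 5 members (11.1%, beside 6.49% of all promoters). A GC box occurred in 37 (82.2%, beside 42.3%), and the median GC content was 65.6% in the members and 58.0% in all promoters. The response element occurred in 1 member, RAB25 (2.22%, beside 1.77%). The motifs did not overlap in the windows of RAB27A and RAB21. A match describes the letters of the window only.

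RAB27A, which docks secretory vesicles and lytic granules at the plasma membrane and takes part in exosome release, had levels of 8.03, 8.01 and 7.92 after CD40L, 7.87, 7.74 and 7.81 after LPS and 7.77, 7.66 and 7.61 in control cells (batches 1 to 3). All CD40L arrays lay above all LPS and all control arrays, while LPS and control arrays overlapped. The mean was 7.98 ± 0.06 after CD40L and 7.68 ± 0.09 in control cells (SD, n = 3 each). RAB27A thus rose by 0.31 ± 0.06 (log2 fold change with its standard error, 1.24-fold, limma adjusted p = 0.00352). After LPS its log2 fold change was 0.13 (adjusted p = 0.378), and CD40L minus LPS was 0.18 (adjusted p = 0.521).

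All 5 probe sets of RAB27A were called higher after CD40L, with log2 fold changes of 0.23 to 0.42. The calls of 2 dimmer ones were lost under 11 and 12 of 20 alternative settings, several with a single array left out (adjusted p up to 0.378 and 0.236), and those of the other 2 under 1 and 2. The brightest of the 5 and 1 other carry the suffix by which the manufacturer marks probes that can match other sequences. The remaining 3 carry a different suffix, which does not show that their probes match RAB27A alone. The largest change, 0.42, came with levels of 7.52, 7.54 and 7.20 after CD40L, 7.51, 7.32 and 7.03 after LPS and 7.08, 6.92 and 6.98 in control cells. Here the LPS arrays of batches 1 and 2 were also above all control arrays, with a log2 fold change of 0.29 that missed the threshold (adjusted p = 0.0584). RAB27B, the close relative of RAB27A, was dim and near 0 in both comparisons, with log2 fold changes of 0.01 each.

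RAB21, a RAB of early endosomes that binds integrins for their uptake, had levels of 10.10, 10.12 and 10.07 after CD40L, 10.03, 10.03 and 9.98 after LPS and 9.81, 9.72 and 9.87 in control cells. The arrays of the 3 conditions did not overlap at any point. RAB21 rose by 0.30 ± 0.06 after CD40L (1.23-fold, adjusted p = 0.00528). With batch 1 left out, the rise after CD40L missed the threshold (0.30, adjusted p = 0.0816). After LPS its log2 fold change was 0.21 (1.16-fold, adjusted p = 0.0837), and CD40L minus LPS was 0.09 (adjusted p = 0.999).

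A second probe set of RAB21 passed the threshold after both stimuli. It had levels of 7.90, 8.06 and 7.71 after CD40L, 7.89, 7.88 and 7.66 after LPS and 7.64, 7.37 and 7.48 in control cells. The log2 fold change was 0.40 after CD40L (adjusted p = 0.00453) and 0.31 after LPS (adjusted p = 0.0443). The call after LPS was lost under 14 of 20 alternative settings, and the call after CD40L under 1, without the CD40L array of batch 2 (0.25, adjusted p = 0.0535). The other 2 probe sets of RAB21 gave 0.16 and 0.11 after CD40L and 0.11 and 0.09 after LPS, none past the threshold.

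RAB5C is one of the RAB5 proteins that drive the fusion of early endosomes. Its levels were 8.82, 9.50 and 8.80 after CD40L, 8.75, 8.91 and 8.76 after LPS and 8.68, 8.55 and 8.66 in control cells. The CD40L array of batch 2 stood far above the other arrays, and all CD40L arrays were above all control arrays. RAB5C rose by 0.41 ± 0.11 (1.33-fold, adjusted p = 0.0423), with within-batch differences of 0.14, 0.95 and 0.14. Without the CD40L array of batch 2 the log2 fold change was 0.18 (adjusted p = 0.301) and without the control array of batch 2 it was 0.23 (adjusted p = 0.129), so that its size depends on these arrays. The call was lost under 14 of 22 alternatives, among them any LPS array or any batch left out. The other probe set of RAB5C had the same high array, at 8.43, 9.20 and 8.45 after CD40L and 8.28, 8.16 and 8.30 in control cells, with a log2 fold change of 0.45 (adjusted p = 0.0344). It lost its call under 12 of 20 alternatives, with 0.155 to 0.597 when arrays or batches were left out. RAB5A and RAB5B, which share this role, were at 0.03 and −0.07 on the log2 fold change scale after CD40L (adjusted p = 0.883 and 0.668).

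RAB7A directs late endosomes to lysosomes. Its brightest probe set had levels of 9.70, 9.97 and 9.60 after CD40L, 9.75, 9.86 and 9.51 after LPS and 9.51, 9.39 and 9.46 in control cells. The CD40L arrays were all above the control arrays, and batch 2 was again the widest, with a difference of 0.59 beside 0.19 and 0.14 in batches 1 and 3. The log2 fold change after CD40L was 0.30 ± 0.08 (1.23-fold, adjusted p = 0.0289) and after LPS 0.25 (adjusted p = 0.132).

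The probe sets of RAB7A disagreed. The next brightest one had levels of 9.43, 9.67 and 9.48 after CD40L and 9.78, 9.60 and 9.72 in control cells, with a log2 fold change of −0.17 (adjusted p = 0.253). The other 5 had log2 fold changes between −0.06 and 0.05. With the mean of all 7 probe sets the value was 0.02 (adjusted p = 0.868), without the CD40L array of batch 2 it was 0.22 (adjusted p = 0.254) and without the control array of batch 2 it was 0.18 (adjusted p = 0.159). Without either of these 2 arrays, RAB27A and RAB21 were the 2 RAB genes called higher.

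**Figure D2:**
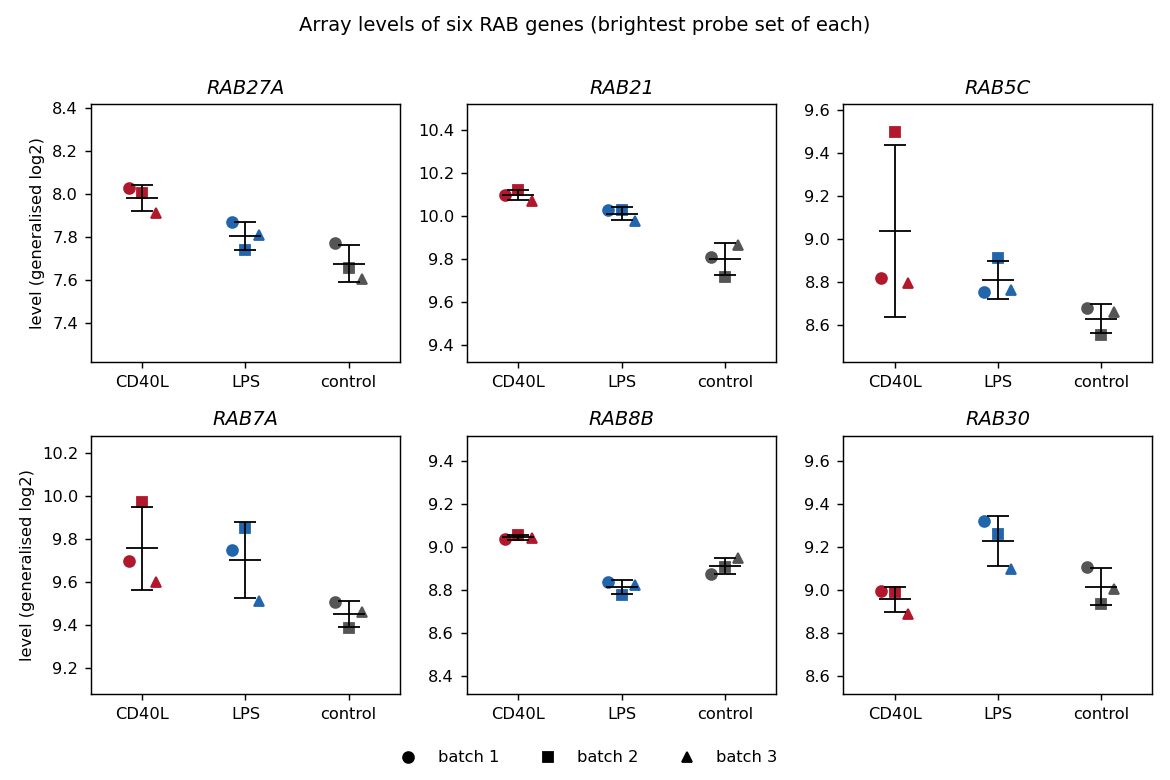
Level on the generalised log2 scale (y axis, each panel spanning 1.2 units) in each of the 9 arrays for RAB27A, RAB21, RAB5C, RAB7A, RAB8B and RAB30, with batches by marker shape and the mean ± SD of 3 arrays in black. For RAB27A and RAB21 the 3 CD40L arrays sat together above the control arrays, for RAB5C the CD40L array of batch 2 stood apart at 9.50, and for RAB8B the CD40L arrays were above and the LPS arrays below those of control cells.

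The early endosome group, with its 7 members, also held RAB22A, which sorts cargo in early and recycling endosomes. It had levels of 8.68, 8.70 and 8.56 after CD40L and 8.66, 8.28 and 8.51 in control cells, so that the arrays overlapped, and a log2 fold change of 0.16 (adjusted p = 0.353). RAB31 and RAB20 were dim, with log2 fold changes of 0.01 and −0.01 after CD40L. The median of the group was 0.03 after CD40L and 0.00 after LPS.

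Among the 9 RAB genes of recycling, 0 were called on the brightest probe set. With 5.03% of all genes higher and 2.92% lower after CD40L, 0 calls in 9 genes do not set them apart. RAB11A, which defines the recycling endosome, was bright at 11.52, 11.47 and 11.52 after CD40L, 11.51, 11.34 and 11.57 after LPS and 11.43, 11.39 and 11.41 in control cells. The CD40L arrays were above the control arrays by a small margin, with a log2 fold change of 0.09 (adjusted p = 0.537). A dimmer probe set of RAB11A was called after both stimuli, at 8.97, 8.99 and 8.68 after CD40L, 8.96, 9.02 and 8.87 after LPS and 8.72, 8.60 and 8.48 in control cells. Its log2 fold change was 0.28 after CD40L (adjusted p = 0.0113) and 0.35 after LPS (adjusted p = 0.00614). The first call was lost under 6 of 20 alternatives, among them those without the CD40L array of batch 1 or 2 (adjusted p up to 0.141), and the second under 5, among them those without the LPS array of batch 2 or 3 (adjusted p up to 0.126). Only that probe set of the 3 of RAB11A passed the threshold.

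RAB14, which moves cargo between Golgi and endosomes, had a log2 fold change of 0.19 after CD40L (adjusted p = 0.204), of which 0.45 came in batch 2 beside 0.105 and −0.002 in the other batches. RAB25, an epithelial relative of RAB11A, was at 6.70, 6.89 and 6.70 after CD40L, 6.78, 6.72 and 6.81 after LPS and 6.93, 6.92 and 6.97 in control cells. All treated arrays lay below all control arrays, with log2 fold changes of −0.18 and −0.17 that missed the threshold (adjusted p = 0.137 and 0.241). RAB4A and RAB35, which serve fast recycling, had log2 fold changes of 0.05 and −0.09 after CD40L.

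Among the 9 RAB genes of late endosomes and lysosome-related organelles, RAB29 came closest to a call after RAB7A. RAB29 acts at the trans-Golgi network and at stressed lysosomes. It had levels of 8.33, 8.66 and 8.49 after CD40L, 8.30, 8.38 and 8.20 after LPS and 8.31, 8.26 and 8.19 in control cells, with a log2 fold change of 0.24 (adjusted p = 0.0569). A dimmer probe set of RAB29 did pass, at 7.79, 8.11 and 7.82 after CD40L, 7.65, 7.64 and 7.42 after LPS and 7.53, 7.42 and 7.36 in control cells. There CD40L arrays were clear of both other conditions, and the log2 fold change of 0.47 ± 0.07 (1.39-fold, adjusted p = 0.000755) was the largest of any RAB probe set past the threshold. For that probe set CD40L minus LPS was 0.34 and did not pass (adjusted p = 0.0665). RAB9A, which returns mannose 6-phosphate receptors to the Golgi, had −0.07 in both comparisons, and RAB32 and RAB38, known from melanosomes, had 0.01 and 0.03 after CD40L. RAB38, RAB37 and RAB40A read near the floor of the arrays, with mean levels of 5.96, 5.97 and 5.90, where a change could go unseen.

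Among the 12 RAB genes of secretion and exocytosis, RAB27A alone was called. Of all genes, 5.03% were called higher and 2.92% lower after CD40L. RAB8A and RAB10, both of exocytosis from the Golgi and of ciliary and surface delivery, had log2 fold changes of 0.15 and 0.14 after CD40L (adjusted p = 0.231 and 0.18) and of 0.11 and 0.13 after LPS. RAB10 was bright at 11.10, 11.18 and 10.97 after CD40L, 11.10, 11.12 and 10.98 after LPS and 11.00, 10.95 and 10.86 in control cells, with overlapping arrays. RAB3A to RAB3D, known from regulated exocytosis in neurons and glands, ran from −0.13 (RAB3D) to 0.08 (RAB3A).

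RAB8B is the close relative of RAB8A. It had levels of 9.04, 9.05 and 9.04 after CD40L, 8.84, 8.77 and 8.82 after LPS and 8.87, 8.90 and 8.95 in control cells. In every batch the CD40L array was above and the LPS array below the control array on this probe set, and neither difference passed the threshold. The log2 fold change was 0.13 after CD40L (adjusted p = 0.224) and −0.10 after LPS (adjusted p = 0.565), and CD40L minus LPS was 0.23 (adjusted p = 0.129). A second probe set of RAB8B gave the same 0.23 (adjusted p = 0.182), with −0.07 after LPS. The third did not share the lower levels after LPS, with within-batch differences of 0.145, 0.180 and −0.163, and gave 0.13 for CD40L minus LPS (adjusted p = 0.999).

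Among the 14 RAB genes of the endoplasmic reticulum and Golgi, 0 were called on the brightest probe set. With 5.03% of all genes higher and 2.92% lower after CD40L, 0 calls in 14 genes do not set them apart. RAB1A, which carries vesicles from the endoplasmic reticulum to the Golgi, had levels of 11.51, 11.67 and 11.62 after CD40L, 11.66, 11.59 and 11.72 after LPS and 11.60, 11.80 and 11.67 in control cells. The arrays overlapped, with log2 fold changes of −0.09 and −0.03. RAB18, of lipid droplets and the endoplasmic reticulum, stood 0.19 above control after CD40L (adjusted p = 0.141) and 0.21 above it after LPS (adjusted p = 0.183). RAB6A, of transport within the Golgi, was measured here only by a dim probe set with a mean of 6.06, since 11 probe sets that name a RAB gene together with another gene were left out.

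RAB30, a Golgi RAB, was the member with the most probe sets past the threshold after LPS. The brightest one had levels of 8.99, 8.99 and 8.89 after CD40L, 9.32, 9.26 and 9.10 after LPS and 9.11, 8.93 and 9.00 in control cells. LPS arrays were highest in each batch, with a log2 fold change of 0.21 (adjusted p = 0.0964), while CD40L gave −0.06 (adjusted p = 0.757). CD40L minus LPS was −0.27 (adjusted p = 0.0829). Of the other 4 probe sets, 2 were called higher after LPS, by 0.34 (adjusted p = 0.0134) and by 0.30 (adjusted p = 0.0186), and 2 were not, at 0.28 and 0.16 (adjusted p = 0.0552 and 0.244). The calls were lost under 5 and 9 of 20 alternatives, also without the LPS array of batch 1 or 2 (adjusted p up to 0.203). The probe set with 0.34 had levels of 8.53, 8.55 and 8.54 after CD40L, 8.89, 8.79 and 8.70 after LPS and 8.51, 8.31 and 8.55 in control cells, so that its LPS arrays were above all others. None of the 5 probe sets passed the threshold for CD40L minus LPS, where the values ran from −0.27 to −0.07.

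Among the 6 remaining genes, RAB40B, a RAB that assembles a ubiquitin ligase through its SOCS box, had the largest log2 fold changes, 0.22 after CD40L (adjusted p = 0.0849) and 0.24 after LPS (adjusted p = 0.106). Its levels were 8.97, 9.10 and 8.64 after CD40L, 9.09, 8.94 and 8.75 after LPS and 8.83, 8.65 and 8.58 in control cells. The CD40L and LPS arrays overlapped those of control cells, and levels were lowest in batch 3 in every condition. RAB23 and RAB28, linked to cilia, had log2 fold changes of 0.07 and −0.01 after CD40L.

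**Figure D3:**
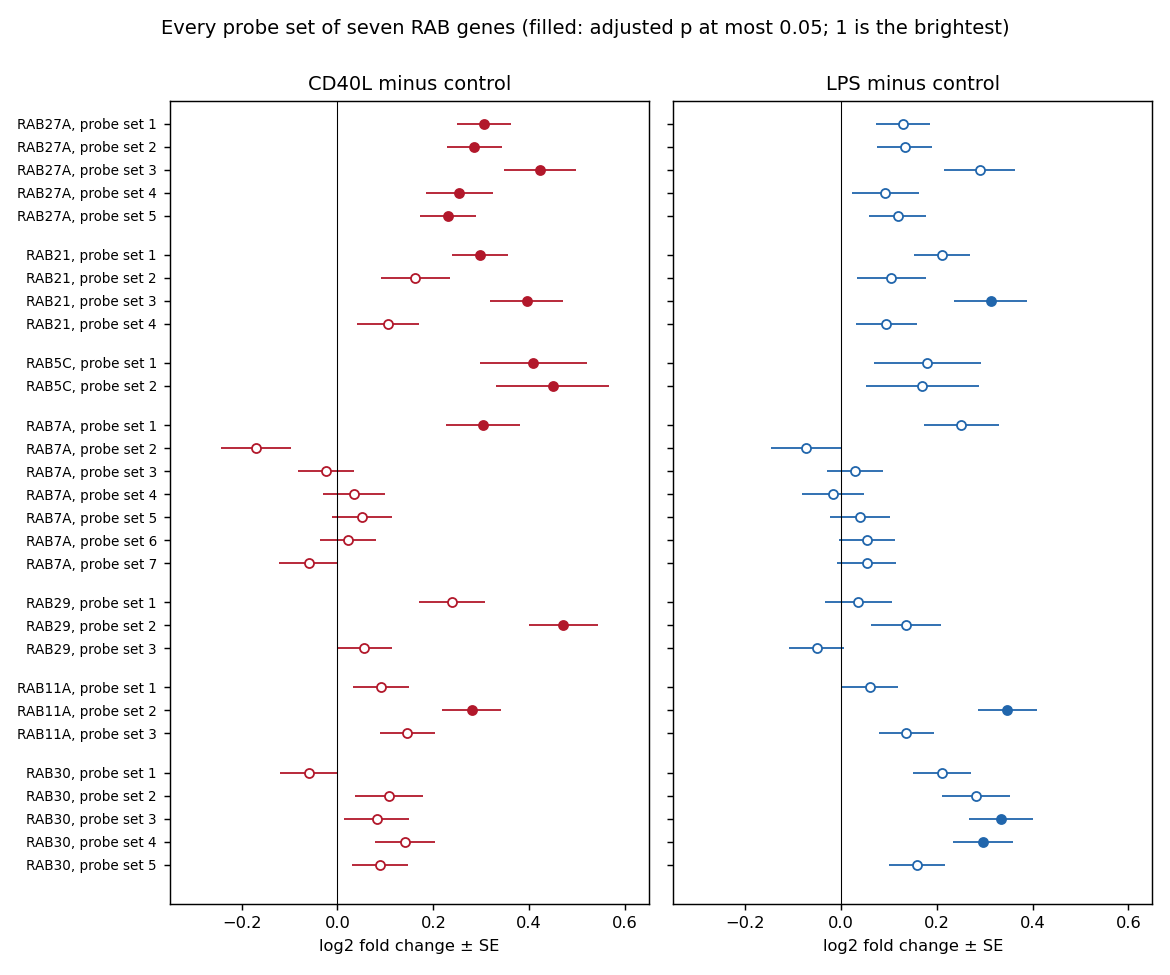
Log2 fold change (x axis, points, with the standard error of the fit as bars) of every probe set of RAB27A, RAB21, RAB5C, RAB7A, RAB29, RAB11A and RAB30, numbered from the brightest, for CD40L minus control on the left and LPS minus control on the right. Filled points have an adjusted p of at most 0.05, among them all 5 of RAB27A after CD40L, 1 of 7 of RAB7A after CD40L and 2 of 5 of RAB30 after LPS.

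CD40L and LPS were compared directly in the same fit, because the comparisons with control share the control arrays. On the brightest probe sets, 0 of 57 RAB genes passed the threshold as higher after CD40L than after LPS and 0 as lower, beside 0.491% and 0.152% of all genes. At an unadjusted p under 0.05, 3 of the 57 were higher and 1 lower, beside 766 and 474 of all 19775 genes. The differences ran from −0.27 (RAB30) to 0.23 (RAB8B).

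A coarser reading is whether all arrays of a treatment lay outside those of control cells. After CD40L 9 RAB genes lay above (15.8%, beside 10.9% of all genes), which were the 4 called ones and RAB11A, RAB17, RAB29, RAB43 and RAB8B, and 5 lay below (8.77%, beside 8.63%). After LPS 3 lay above (5.26%, beside 7.96%), RAB21, RAB5C and RAB7A, and 6 lay below (10.5%, beside 7.75%). The shares were thus close to those of all genes. The 5 below after CD40L were RAB25, RAB33B, RAB3B, RAB3C and RAB6B, with log2 fold changes of −0.18 to −0.06. All 5 were dim, with mean levels of 6.22 (RAB3C) to 7.10 (RAB33B).

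Among the genes that act on RAB proteins, RILPL2 and DENND4A changed most after CD40L, by 1.12 and 0.92 on the log2 scale. Among brightest probe sets, the largest RAB change was 0.41 (RAB5C). SYTL2 (−0.56), DENND1B (0.49), TBC1D10C (−0.45) and TBCK (−0.435) also exceeded it in size. Of 194 regulators and effectors measured, in 8 lists, 13 were higher (6.7%, beside 5.03% of all genes) and 12 lower (6.19%, beside 2.92%) after CD40L, and 6 were higher (3.09%, beside 1.62%) and 4 lower (2.06%, beside 1.48%) after LPS. Their median log2 fold change was 0.00 after CD40L and −0.01 after LPS, beside 0.01 and 0.00 for all genes. Of the 25 called after CD40L, 7 kept their call under every alternative setting, DENND1B, DENND4A, TBCK, EEA1, RABEP1, RILPL2 and SYTL2, and of the 10 called after LPS 1 did, RILPL2. After CD40L, EHD4 lost its call under 18 of 22 alternatives, RBSN and GORAB under 17 each and RABGGTB under 16. ANKRD27 and EHD3 lost theirs under 14 each and SYTL1 under 13. After LPS, TRAPPC13 lost its call under 17, SYTL2 under 14, ACAP2 under 12 and OPTN under 11. The shares given for each list below include such calls.

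Of the 49 exchange factors, 4 rose (8.16%, beside 5.03% of all genes) and 2 fell (4.08%, beside 2.92%) after CD40L, and 2 rose (4.08%, beside 1.62%) and 0 fell after LPS. The median of the list was −0.03 after CD40L and −0.04 after LPS. DENND4A, an exchange factor for RAB10, had levels of 9.83, 9.70 and 9.83 after CD40L, 9.07, 9.21 and 9.08 after LPS and 8.80, 8.92 and 8.88 in control cells. The 3 conditions did not overlap. DENND4A rose by 0.92 ± 0.06 after CD40L (1.89-fold, adjusted p = 2.99e-07), had 0.25 after LPS (adjusted p = 0.0574) and was higher after CD40L than after LPS by 0.67 (adjusted p = 7.89e-05). These values are of the brighter of its 2 probe sets. The study kept the probe set of highest fold change and lists DENND4A among its most changed genes, as higher, after CD40L as well as LPS. DENND1B, an exchange factor for RAB35, rose by 0.49 after CD40L (adjusted p = 0.000194) and by 0.31 after LPS (adjusted p = 0.0207), on the brightest of its 6 probe sets. Over the alternatives its log2 fold change after CD40L ran from 0.181 to 0.584. Its call after LPS was lost under 10 of 22, among them the mean of its probe sets and any LPS array left out. TRAPPC3, a core subunit of the TRAPP complexes, and ANKRD27, an exchange factor for RAB21, rose by 0.25 and 0.24 after CD40L, and DENND5B and TRAPPC2 fell by 0.32 and 0.31. TRAPPC13 rose by 0.28 after LPS.

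Of the 40 GTPase activating proteins, 0 rose (beside 5.03% of all genes) and 4 fell (10.0%, beside 2.92%) after CD40L, and 0 rose (beside 1.62%) and 2 fell (5.0%, beside 1.48%) after LPS. At an unadjusted p under 0.05, 4 were higher and 6 lower after CD40L, and 2 were higher and 6 lower after LPS. Of all 19775 genes, 2495 were then higher and 1447 lower after CD40L, and 1664 higher and 1300 lower after LPS. TBCK had levels of 7.81, 7.81 and 7.74 after CD40L, 7.86, 7.80 and 7.83 after LPS and 8.29, 8.16 and 8.22 in control cells. All treated arrays were below all control arrays, and it fell by 0.43 after CD40L (adjusted p = 0.000148) and by 0.39 after LPS (adjusted p = 0.00128). TBC1D10C, which acts on RAB35 and restrains calcineurin in T cells, fell by 0.45, RABGAP1 by 0.36 and TBC1D5, which acts on RAB7A, by 0.23 after CD40L. TBC1D5 also fell after LPS, by 0.28. The median of the list was 0.00 after CD40L and −0.01 after LPS, with 19 of 40 above 0 after CD40L.

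Of the 16 endosomal effectors, 3 rose (18.8%, beside 5.03% of all genes) and 0 fell (beside 2.92%) after CD40L, and 1 rose (6.25%, beside 1.62%) and 0 fell after LPS. Their median was 0.03 after CD40L and −0.00288 after LPS. These 3 are effectors of RAB5. EEA1, which tethers early endosomes, had levels of 8.64, 8.81 and 8.72 after CD40L, 8.70, 8.69 and 8.74 after LPS and 8.40, 8.17 and 8.44 in control cells. It rose by 0.39 after CD40L (adjusted p = 0.00298) and by 0.37 after LPS (adjusted p = 0.00971). RABEP1, the partner of a RAB5 exchange factor, rose by 0.32 (adjusted p = 0.0021) and RBSN, which links RAB5 and RAB4, by 0.20 (adjusted p = 0.0479) after CD40L. The call of RBSN was lost under 17 of 22 alternatives (limma adjusted p up to 0.407).

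Of the 19 recycling effectors, 3 rose (15.8%, beside 5.03% of all genes) and 1 fell (5.26%, beside 2.92%) after CD40L, and 1 rose (5.26%, beside 1.62%) and 0 fell after LPS. The median of the list was 0.01 after CD40L and 0.00461 after LPS. ACAP2, an effector of RAB35, rose by 0.31 after CD40L (adjusted p = 0.0168) and by 0.30 after LPS (adjusted p = 0.0366). MICALL1 and EHD4, which shape recycling tubules, rose by 0.28 and 0.22 after CD40L, and EHD3 fell by 0.25.

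RILPL2, an effector of RAB8A and RAB10 that takes part in ciliary traffic, changed most of all the list genes. It had levels of 9.56, 9.86 and 9.66 after CD40L, 9.35, 9.34 and 9.36 after LPS and 8.61, 8.62 and 8.49 in control cells. The 3 conditions did not overlap. RILPL2 rose by 1.12 ± 0.07 after CD40L (2.17-fold, adjusted p = 7.83e-08) and by 0.78 ± 0.07 after LPS (1.72-fold, adjusted p = 2.95e-05), and CD40L exceeded LPS by 0.34 (adjusted p = 0.0348), a difference past the threshold under 11 of 22 alternatives. It is 1 of 22 effectors of this list (4.55% after either stimulus, beside 5.03% of all genes higher after CD40L and 1.62% after LPS). None of the other 21 effectors of late endosomes, lysosomes and tethering passed the threshold in either comparison with control.

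Of the 24 effectors of secretory granules and motors, 0 rose (beside 5.03% of all genes) and 2 fell (8.33%, beside 2.92%) after CD40L, and 1 rose (4.17%, beside 1.62%) and 1 fell (4.17%, beside 1.48%) after LPS. The median of the list was −0.04 after CD40L and −0.00127 after LPS. The 2 that fell after CD40L, SYTL2 and SYTL1, are known to bind RAB27A. SYTL2 had levels of 8.14, 8.01 and 7.89 after CD40L, 8.44, 8.17 and 8.31 after LPS and 8.62, 8.51 and 8.59 in control cells. It fell by 0.56 after CD40L (adjusted p = 3.64e-05) and by 0.27 after LPS (adjusted p = 0.0348), with CD40L minus LPS at −0.29 (adjusted p = 0.0637). SYTL1 fell by 0.26 after CD40L (adjusted p = 0.0433). OPTN, an effector of RAB8A, rose by 0.31 after LPS (adjusted p = 0.0282).

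Of the 17 Golgi effectors, 1 rose (5.88%, beside 5.03% of all genes) and 2 fell (11.8%, beside 2.92%) after CD40L, and 0 rose and 1 fell (5.88%, beside 1.48%) after LPS. Golgi effectors had a median of 0.06 after CD40L and −0.00997 after LPS. COG4, a subunit of the Golgi tethering complex COG, fell by 0.34 after CD40L (adjusted p = 0.00226) and by 0.29 after LPS (adjusted p = 0.0171). KIF20A, a kinesin that binds RAB6A and serves cell division, fell by 0.30, and GORAB, a Golgi protein, rose by 0.27 after CD40L. Among 7 genes of prenylation and membrane delivery, 1 rose and 1 fell after CD40L (14.3% each, beside 5.03% and 2.92% of all genes). RABGGTB, the catalytic beta subunit of the geranylgeranyl transferase, rose by 0.23 (adjusted p = 0.0471) and RABAC1, a membrane receptor of prenylated RABs, fell by 0.33 after CD40L (adjusted p = 0.00398). None of the 7 passed the threshold after LPS.

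**Figure D4:**
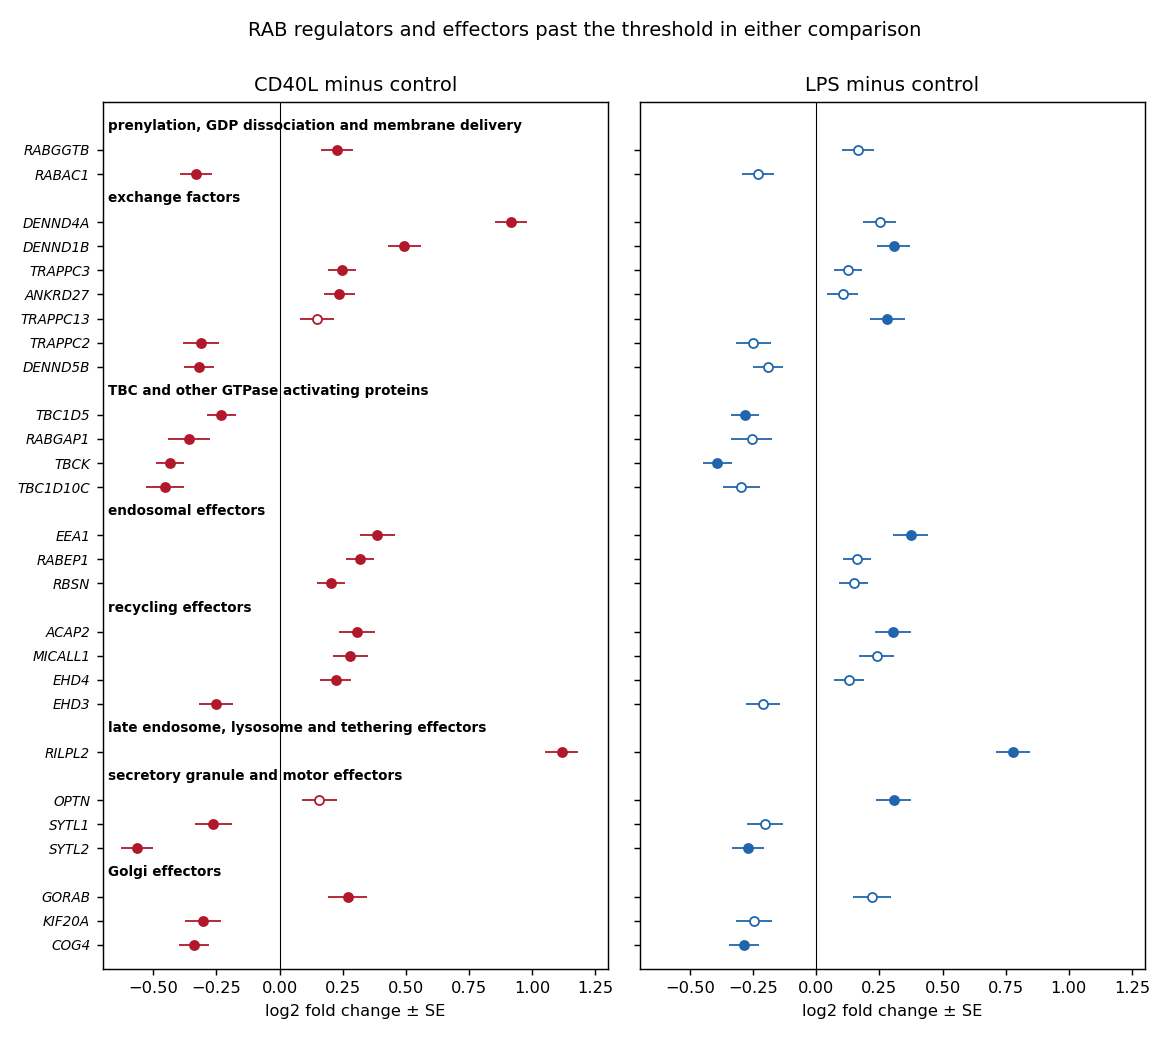
Log2 fold change (x axis, points, with the standard error of the fit as bars) of the 27 regulators and effectors past the threshold in CD40L minus control or LPS minus control, by list, CD40L on the left and LPS on the right (3 arrays per condition). Filled points have an adjusted p of at most 0.05, with RILPL2 at 1.12 and DENND4A at 0.92 farthest to the right after CD40L and SYTL2 at −0.56 farthest to the left.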

How the data were processed

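RNA of 9 samples of BL2 cells was hybridised to HG-U133 Plus 2.0 arrays. Generalised log2 values, deposited by the authors after background correction, variance stabilisation and median polish of each probe set, were used as given. Symbols came from the platform annotation (54675 probe sets, 62 AFFX controls left out). Log2 fold changes, standard errors and two-sided p-values were computed in R 4.3.3 with lmFit and eBayes of limma 3.58.1. All 9 arrays entered 1 fit on condition and batch, with Benjamini-Hochberg adjustment over 54613 probe sets at a threshold of 0.05. Residual degrees of freedom were 4 and prior ones 11.6. With 3 arrays against 3 and the batches ignored, an exact permutation test cannot go below 0.1. A permutation within batches has fewer arrangements, so its bound is higher. The number of arrays limits the precision.

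Samples with the same number are paired, because the sample names number the experimental batches and the study's methods model them. Correlations of the arrays' deviations from their group mean averaged 0.217 within a number and −0.109 between numbers. In batch 2, CD40L and control had −0.181 and LPS and control −0.0401, whereas the other 7 pairs had 0.183 to 0.466.

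Named genes were every RAB gene past the threshold, the 3 with the largest log2 fold change after each stimulus, the 3 brightest and 3 dimmest, those whose probe sets disagreed on the call, up to 4 called members of each list, and well-known members of each role group. The members and lists were chosen with earlier results of these data known. Of the listed genes, 9 had no probe set naming 1 gene and are not reported. As alternatives, each replicate or array was left out, the batch was dropped or made random (statmod 1.5.0), the fit was limited to the 2 groups compared, arrays were median centred or quantile normalised, dim probe sets were filtered, AFFX probe sets were kept, eBayes was run with trend and robust, and a gene was taken as the mean of its probe sets or by the one of largest change. The fit was tested on simulated data.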

Additional observations from a re-analysis of the deposited data

Results flagged for a closer look

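Effects of CD40L and LPS that differed from each other were looked at again. DENND4A was higher after CD40L than after LPS by 0.67 on the log2 scale (limma adjusted p = 7.89e-05), in 3 of 3 batches and under all 22 alternatives.

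RILPL2 was higher after CD40L than after LPS by 0.34 (adjusted p = 0.0348), in 3 of 3 batches. It stayed past the threshold under 11 of 22 alternatives, with adjusted p between 0.000511 and 0.448.

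On the brightest probe set of RAB8B, the CD40L array was above and the LPS array below the control array in 3 of 3 batches, though neither difference passed the threshold (adjusted p = 0.224 and 0.565). CD40L minus LPS was 0.23, which did not pass either (adjusted p = 0.129). Another probe set of RAB8B was higher after LPS in batches 1 and 2 and lower in batch 3, with a log2 fold change of 0.05.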

How the results depend on the processing

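RAB27A kept its call after CD40L under all 22 alternatives (adjusted p 0.00234 to 0.0451) and RAB21 under 21. RAB21 lost it without replicate 1, with 0.30 (adjusted p = 0.0816). RAB7A lost it under 11 and RAB5C under 14. Without the replicate block, with a random block or with only the groups compared, 2 RAB genes were higher after CD40L, RAB21 and RAB27A. With arrays or batches left out, 2 to 5 were higher after CD40L and 0 to 1 lower (RAB25), 0 to 1 were higher after LPS, and 0 to 1 were higher and 0 to 1 lower for CD40L minus LPS. Counts fell to 2 without replicate 1 (RAB27A and RAB29), replicate 2, CD40L replicate 2, LPS replicate 1 or control replicate 2. For CD40L minus LPS, 1 RAB gene was higher (RAB8B) and 1 lower (RAB30) with only the groups compared, and 1 lower (RAB30) after quantile normalization. After LPS 1 was higher with the mean of the probe sets (RAB30) and 3 with the probe set of largest change (RAB11A, RAB21 and RAB30). The RAB median after LPS was then 0.0395, and −0.00802 to 0.0229 with arrays or batches left out. After quantile normalization the RAB median after CD40L was −0.00392, where the deposited values gave 0.0222. Among all genes, quantile normalization changed the calls from 995 higher and 578 lower to 776 and 964 after CD40L, and from 320 and 293 to 358 and 535 after LPS, with the same 4 RAB genes higher after CD40L. Without the batch, all genes gave 482 higher and 344 lower calls after CD40L and 84 and 103 after LPS. The cause of these changes was not tested. No called value changed direction. For the genes and probe sets named, 837 values kept their side of the threshold, 368 lost a call and 3 gained one. Dim probe sets limit what could be seen, as 12 of 57 RAB genes lay below the median level. T and NK cell markers and monocyte markers read up to 6.67, above that median, so RAB genes slightly above it can be dim too.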
